A study of Mus musculus with 12 samples.

Results

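The genes described here are 10 mouse counterparts of human Alzheimer disease risk genes: Apoe, Clu, Abca7, Sorl1, Bin1, Picalm, Cd2ap, Ptk2b, Inpp5d and Mapt. They were chosen by symbol, and the symbol of each was found once among the 54427 genes of the deposited count table. All 10 had enough counts to be tested, as did 17227 genes of the table in all.

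RNA of mouse hippocampus was sequenced in 12 libraries, in 4 groups of 3. The 5xFAD;Ulk1OV group carries the labels of both transgenic conditions, the 5xFAD group the first alone, the Ulk1OV group the second alone, and the WT group neither. 5xFAD is a transgenic line that expresses mutant human APP and develops amyloid plaques, and in the published line the neuronal Thy1 promoter drives the transgenes. Ulk1OV stands for overexpressed ULK1, a kinase that sets off autophagy. The sources used here do not give its construct, the promoters of these mice, their strain or their age. Whether the replicates of a group were separate animals is not labelled, and the p-values then reflect only how far these libraries spread, which may be technical.

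Variants at or near these genes change the risk of late-onset Alzheimer disease in people, and Mapt encodes tau, the protein of neurofibrillary tangles. The genes fall into a few known processes. Apoe, Clu and Abca7 carry or move lipid, and apolipoprotein E and clusterin, both secreted mainly by astrocytes in the brain, bind amyloid-beta. Sorl1, Bin1, Picalm and Cd2ap act in endocytosis and in sorting of membrane proteins, among them the amyloid precursor protein. Ptk2b and Inpp5d encode signalling enzymes, of neurons and microglia in the main.

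The libraries held 16149992 to 18547132 counts. One library went against its label. App was at 1310 CPM (counts scaled to a common library size) in the library labelled 5xFAD;Ulk1OV replicate 3, against 2201 to 2667 CPM in the other 5 libraries with the 5xFAD label and 1241 to 1493 CPM in the 6 without it. Prnp, the prion protein gene, was at 954.0 CPM in that library, against 2067 to 2509.7 CPM in the other 5 with the 5xFAD label and 900.1 to 1119 CPM in the 6 without it. Thy1 was at 507.0 to 605.7 CPM in the 6 libraries with the 5xFAD label and at 555.5 to 641.5 CPM in the 6 without it, so these sets overlapped. Ulk1 averaged 93.6 ± 7.41 CPM in 5xFAD;Ulk1OV, 73.2 ± 11.7 in 5xFAD, 91.4 ± 9.29 in Ulk1OV and 77.8 ± 3.86 in WT (SD, n = 3 each). By library, 5xFAD replicate 1 (86.3 CPM) was above Ulk1OV replicate 3 (84.6 CPM) and 5xFAD;Ulk1OV replicate 3 (85.1 CPM). Ulk1 was not called for Ulk1OV against WT (edgeR adjusted p = 0.229) or 5xFAD;Ulk1OV against 5xFAD (edgeR adjusted p = 0.144). An exact permutation test of 6 libraries with the Ulk1OV label against 6 without gave p = 0.00649. Ttr, the leading transcript of choroid plexus, stood at 3994 CPM in Ulk1OV replicate 1 and 5949 CPM in WT replicate 3, against 5.09 to 285.0 CPM elsewhere. Markers of neurons, astrocytes, oligodendrocytes and microglia all had counts in every group. The measured markers of the other cell types, choroid plexus among them, did too, so this does not set any cell type apart.

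Per kilobase of exon the 10 genes spanned nearly 3 orders of size. Apoe was the most abundant, with a median of 1103 CPM per kb over the 12 libraries, and Clu followed with 456 CPM per kb. Ptk2b (92.4), Bin1 (64.3), Mapt (57.9), Sorl1 (19.2) and Picalm (11.8 CPM per kb) were in the middle. Abca7 (2.32), Inpp5d (2.30) and Cd2ap (1.40 CPM per kb) were the lowest. The length was that of all annotated exons of a gene together, 15864 bases for Cd2ap and 15732 for Picalm. Their longest transcripts had 5610 and 8209 bases, so the places of these genes depend on the length used. With the exon lengths the order held in all 12 libraries for every pair of neighbours except 3. Bin1 was above Mapt in 9 of 12 libraries, Abca7 above Inpp5d in 6 of 12 and Inpp5d above Cd2ap in 11 of 12, and the ranges of each of these pairs overlapped.

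**Figure D1:**
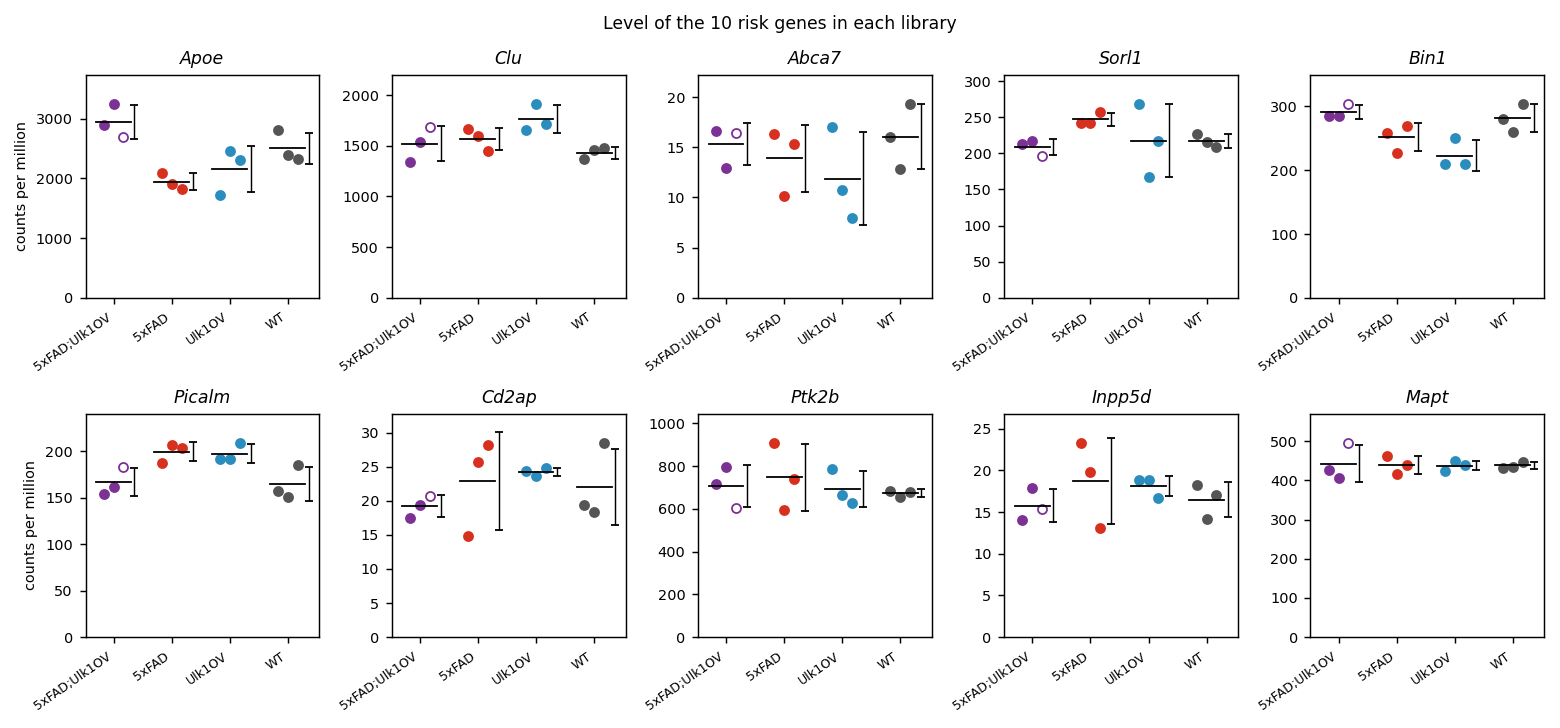
Level in CPM (y axis, from 0) of the 10 genes in each library, by group (x axis); points are libraries, lines are means, bars are SD over 3 libraries, and the open circle is the library labelled 5xFAD;Ulk1OV replicate 3. Apoe and Bin1 were highest on average in 5xFAD;Ulk1OV (2941 and 291.5 CPM) with WT next (2506 and 281.4 CPM), Picalm was highest on average in 5xFAD and Ulk1OV (199.0 and 197.3 CPM), and the 4 means of Mapt lay between 437.3 and 442.6 CPM.

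Apoe and Picalm bracket the set in what follows, and their promoters are shown because the pair differs in base composition both upstream and along the transcript. RefSeq's promoter table for GRCm38.p6 had an entry for 6 of the 10 genes. The 250 bases before each start are printed 5′ to 3′ on the gene's strand. Capitals mark GC boxes (GGGCGG, or CCGCCC on the other strand) and the E box (CACGTG, its own reverse complement).
Apoe, chr7:19699189-19699438, minus strand: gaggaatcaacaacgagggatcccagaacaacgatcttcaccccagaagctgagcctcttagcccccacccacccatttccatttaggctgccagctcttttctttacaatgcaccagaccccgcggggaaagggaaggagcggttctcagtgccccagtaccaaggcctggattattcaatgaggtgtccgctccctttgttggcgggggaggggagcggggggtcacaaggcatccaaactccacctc
Picalm, chr7:90129963-90130212, plus strand: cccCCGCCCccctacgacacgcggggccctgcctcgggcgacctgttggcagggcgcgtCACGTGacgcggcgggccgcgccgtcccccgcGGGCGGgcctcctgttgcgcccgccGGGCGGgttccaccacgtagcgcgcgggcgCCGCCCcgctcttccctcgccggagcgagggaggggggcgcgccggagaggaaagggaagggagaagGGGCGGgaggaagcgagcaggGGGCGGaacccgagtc
The Picalm window held 6 GC boxes and 1 E box at a GC content of 79.2%, higher than in 98.4% of the 32851 promoters of the same length. The Apoe window held neither motif at a GC content of 57.2%. A GC box was in 32.7% and the E box in 6.02% of those promoters. CCAAT (in 33.8%) and TATAAA (in 12.4%), searched on both strands like the others, were in neither window. The transcripts run the other way: the longest Apoe transcript was 59.5% GC, the highest of the 10 genes, and that of Picalm 42.1%, the second lowest after Cd2ap (38.4%).

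How the 10 genes differed between groups was tested for each transgenic label in both backgrounds. On average Apoe and Bin1 were higher, and Picalm lower, in 5xFAD;Ulk1OV and WT than in the groups with 1 label, and the effect of 5xFAD on these 3 genes differed with Ulk1OV in the test of that difference. Between pairs of groups only Bin1 passed the edgeR test, higher in 5xFAD;Ulk1OV than in Ulk1OV, where DESeq2 also called Apoe. The calls on Apoe, Bin1 and Picalm ended when the trend of every library over the GC content and length of transcripts was removed, and Clu was called in their place. Bulk RNA cannot tell fewer cells of a type from less RNA per cell.

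For 5xFAD against WT, 0 of the 10 genes were called at an edgeR adjusted p under 0.05, where 0.0% of all tested genes were (2139 genes at an unadjusted p under 0.05, and 150 called by DESeq2, none of them among the 10). At an unadjusted p under 0.05 there were 2 of the 10, Apoe and Picalm. The libraries of both groups did not overlap for 3 genes, Apoe (lower in 5xFAD), Sorl1 and Picalm (higher in 5xFAD), against 19.5% of all tested genes. For 5xFAD;Ulk1OV against Ulk1OV, 1 of 10 was called, Bin1, against 6.1% of all tested genes, and DESeq2 called Apoe and Bin1. Libraries of these groups did not overlap for 4 genes, with Apoe and Bin1 higher and Picalm and Cd2ap lower in 5xFAD;Ulk1OV, against 27.6% of all genes. For Ulk1OV against WT, 0 of 10 were called (4152 genes at an unadjusted p under 0.05; Clu and Bin1 called by DESeq2), against 5.17% of all genes, and 3 did not overlap against 29.5%. Those 3 were Clu and Picalm, higher in Ulk1OV, and Bin1, lower in Ulk1OV.

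For 5xFAD;Ulk1OV against 5xFAD, 0 of 10 were called (3003 genes at an unadjusted p under 0.05; Apoe called by DESeq2), where 0.0464% of all genes were, and 4 did not overlap against 22.2%. Apoe and Bin1 were the higher and Sorl1 and Picalm the lower of these 4 in 5xFAD;Ulk1OV. The interaction, which is the effect of 5xFAD with Ulk1OV minus its effect without, was called for 3 of the 10 genes, 2 positive (Apoe and Bin1) and 1 negative (Picalm), against 12.8% of all genes. Its median over the 10 genes was -0.19 on the log2 scale, and -0.01 over all tested genes. Genes said below to rise or fall in the interaction were called with a positive or negative value of this difference. That is not a higher or lower level in any group. No gene of the 10 was called for either label averaged over both backgrounds, where 0.0% of all genes were (802 genes for 5xFAD and 1521 for Ulk1OV at an unadjusted p under 0.05, and 16 and 42 called by DESeq2). In an exact two-sided permutation test of the 6 libraries with a label against the 6 without, over 924 splits, the lowest p among the 10 was 0.167, for Clu and the Ulk1OV label. Changes of opposite sign in the backgrounds cancel in such averages. For 5xFAD they were -0.37 without and 0.45 with Ulk1OV for Apoe, -0.16 and 0.39 for Bin1, and 0.28 and -0.25 for Picalm (log2). The averages also count the library labelled 5xFAD;Ulk1OV replicate 3 by its label. The comparisons share groups, so they are not independent of each other.

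**Figure D2:**
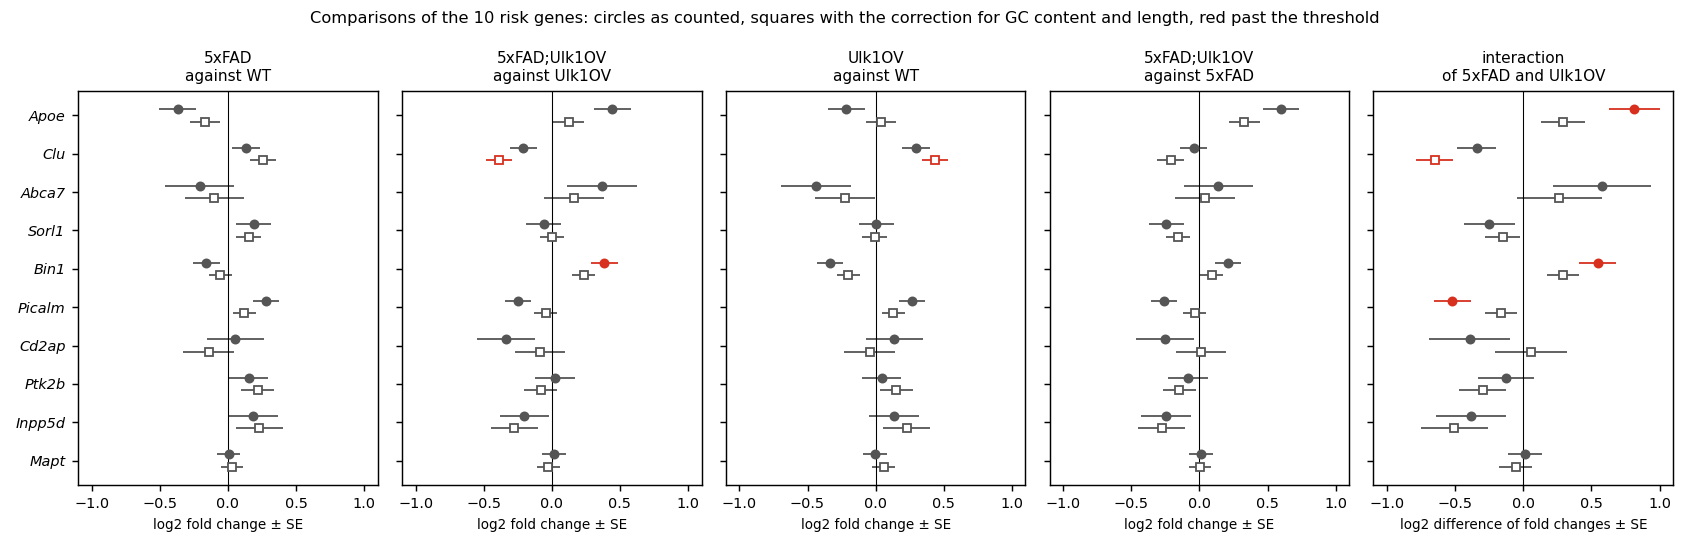
Log2 fold change ± SE (x axis) of the 10 genes (rows) in 4 comparisons of groups and in the interaction; circles are the counts as deposited, squares the fit corrected for GC content and length, and red marks an edgeR adjusted p under 0.05. The red circles are Bin1 (0.39) in 5xFAD;Ulk1OV against Ulk1OV, with Apoe (0.81), Bin1 (0.55) and Picalm (-0.52) in the interaction, while each red square is Clu.

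Apoe (GRCm38 chromosome 7, 19696109 to 19699188, minus strand) encodes apolipoprotein E, the main lipid carrier of the brain. Its level was 2889.5, 3249.9 and 2684 CPM in 5xFAD;Ulk1OV, against 2096, 1907 and 1816 CPM in 5xFAD. It was 1721, 2449.8 and 2311 CPM in Ulk1OV, against 2804, 2388 and 2327 CPM in WT. Every 5xFAD;Ulk1OV library was above every 5xFAD and every Ulk1OV library, every 5xFAD library was below every WT library, and Ulk1OV overlapped WT. The log2 fold change against 5xFAD was 0.60 ± 0.13 (SE) in 5xFAD;Ulk1OV (edgeR adjusted p = 0.0749), where DESeq2 gave 0.61 with an adjusted p of 0.00105. It was 0.45 ± 0.13 for 5xFAD;Ulk1OV against Ulk1OV (edgeR adjusted p = 0.0614, and 0.0121 by DESeq2) and -0.37 ± 0.13 for 5xFAD against WT (edgeR adjusted p = 0.298).

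The interaction of Apoe was 0.81 ± 0.19 (edgeR adjusted p = 0.0162). It stayed called with each of the 12 libraries left out, at 0.67 to 0.94, and was 0.90 (adjusted p = 0.0116) without the library labelled 5xFAD;Ulk1OV replicate 3. Without that library the fold change against Ulk1OV also passed the test, at 0.52 (edgeR adjusted p = 0.0431), as it did without Ulk1OV replicate 2 (0.56, adjusted p = 0.0340). That against 5xFAD passed without 5xFAD replicate 1 (0.67, edgeR adjusted p = 0.0483), Ulk1OV replicate 1 (0.60, adjusted p = 0.0382) or Ulk1OV replicate 2 (0.62, adjusted p = 0.0423).

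Clu (chromosome 14, 65968483 to 65981547, plus strand) encodes clusterin, or apolipoprotein J, a secreted chaperone that also carries lipid. It stood at 1344, 1539.7 and 1682 CPM in 5xFAD;Ulk1OV, against 1661, 1594 and 1449 CPM in 5xFAD. It stood at 1652, 1915 and 1710.5 CPM in Ulk1OV, against 1366, 1455 and 1474 CPM in WT. All 3 Ulk1OV libraries were above the 3 WT libraries, and the other pairs of groups overlapped. Clu was 0.30 ± 0.10 higher on the log2 scale in Ulk1OV than in WT, which did not pass the test (edgeR adjusted p = 0.0948), and DESeq2 called it (0.29, adjusted p = 0.0315). The interaction was -0.34 ± 0.14 (edgeR adjusted p = 0.133).

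Abca7 (chromosome 10, 79996494 to 80015572, plus strand) encodes a transporter that moves phospholipid across membranes. It had 145 to 341 counts per library and was at 16.6, 12.9 and 16.4 CPM in 5xFAD;Ulk1OV, against 16.3, 10.1 and 15.3 CPM in 5xFAD. It was at 17.0, 10.7 and 7.90 CPM in Ulk1OV, against 16.0, 12.8 and 19.3 CPM in WT. The 4 groups overlapped, and the interaction of 0.58 ± 0.36 did not pass the test (edgeR adjusted p = 0.312).

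Sorl1 (chromosome 9, 41964720 to 42124297, minus strand) encodes SORLA, a sorting receptor that returns the amyloid precursor protein from endosomes. It stood at 212.4, 217.6 and 196.0 CPM in 5xFAD;Ulk1OV, against 241.3, 242.2 and 257.6 CPM in 5xFAD. It stood at 268.7, 167.0 and 216.8 CPM in Ulk1OV, against 226.9, 215.4 and 208.1 CPM in WT. The 5xFAD libraries were above all WT and all 5xFAD;Ulk1OV libraries, while Ulk1OV alone spanned the range of the other groups. The fold change of -0.24 ± 0.13 (log2) for 5xFAD;Ulk1OV against 5xFAD did not pass the test (edgeR adjusted p = 0.353).

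Bin1 (chromosome 18, 32377230 to 32435737, plus strand) encodes a BAR-domain protein that curves membranes and is called amphiphysin 2. It stood at 285.2, 285.0 and 304.4 CPM in 5xFAD;Ulk1OV, against 209.0, 250.7 and 209.5 CPM in Ulk1OV. It stood at 259.1, 227.4 and 269.3 CPM in 5xFAD, against 279.8, 260.4 and 303.9 CPM in WT. The 5xFAD;Ulk1OV libraries were above every library of both groups with 1 label, all Ulk1OV libraries were below all WT libraries, and 5xFAD overlapped WT. Bin1 rose by 0.39 ± 0.10 (log2) in 5xFAD;Ulk1OV against Ulk1OV (edgeR adjusted p = 0.0368), and did not pass with only the 6 libraries compared (0.39, adjusted p = 0.0717) or with the correction (0.23, adjusted p = 0.145). For Ulk1OV against WT the change was -0.34 ± 0.10 (edgeR adjusted p = 0.0619), and DESeq2 called it (-0.34, adjusted p = 0.0133).

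The interaction of Bin1 was 0.55 ± 0.14 (edgeR adjusted p = 0.0234). It did not pass the test without 5xFAD replicate 2 (0.48, adjusted p = 0.0552), 5xFAD;Ulk1OV replicate 2 (0.56, adjusted p = 0.0517), Ulk1OV replicate 3 (0.50, adjusted p = 0.0675), WT replicate 1 (0.55, adjusted p = 0.0550) or WT replicate 3 (0.49, adjusted p = 0.0512). It was 0.54 (adjusted p = 0.0303) without the library labelled 5xFAD;Ulk1OV replicate 3. The rise against Ulk1OV did not pass the test without that library (0.37, edgeR adjusted p = 0.0538), without 5xFAD;Ulk1OV replicate 1 (0.40, adjusted p = 0.109) or 2 (0.40, adjusted p = 0.115), Ulk1OV replicate 1 (0.34, adjusted p = 0.101) or 3 (0.34, adjusted p = 0.164), or WT replicate 1 (0.39, adjusted p = 0.0566). The Ulk1OV change against WT passed it without Ulk1OV replicate 2 (-0.44, edgeR adjusted p = 0.0266).

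Picalm (chromosome 7, 90130213 to 90213465, plus strand) encodes an adaptor that gathers clathrin and cargo at the plasma membrane. It stood at 154.3, 161.7 and 183.2 CPM in 5xFAD;Ulk1OV, against 187.4, 206.9 and 202.7 CPM in 5xFAD. It stood at 191.7, 191.7 and 208.7 CPM in Ulk1OV, against 156.7, 151.0 and 185.2 CPM in WT. All 6 libraries with 1 label were above all 6 libraries with both labels or neither. The interaction was -0.52 ± 0.14 (edgeR adjusted p = 0.0252). It kept its call without 5xFAD replicate 1 (-0.54, adjusted p = 0.0245), 5xFAD;Ulk1OV replicate 3 (-0.57, adjusted p = 0.0182), Ulk1OV replicate 1 (-0.54, adjusted p = 0.0364), Ulk1OV replicate 2 (-0.52, adjusted p = 0.0311) or WT replicate 3 (-0.62, adjusted p = 0.0157). With any of the other 7 libraries left out it did not pass the test, and over the 12 it lay between -0.62 and -0.47 with adjusted p of 0.0157 to 0.0720. Its 4 changes between pairs of groups were -0.26 (5xFAD;Ulk1OV against 5xFAD), -0.25 (5xFAD;Ulk1OV against Ulk1OV), 0.28 (5xFAD against WT) and 0.26 (Ulk1OV against WT), and none passed the test.

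Cd2ap (chromosome 17, 42792951 to 42876665, minus strand) encodes a scaffold that ties membrane receptors to actin. It was at 17.5, 19.4 and 20.7 CPM in 5xFAD;Ulk1OV, against 24.3, 23.7 and 24.7 CPM in Ulk1OV. It was at 14.8, 25.7 and 28.2 CPM in 5xFAD, against 19.3, 18.3 and 28.5 CPM in WT. The 5xFAD;Ulk1OV libraries lay below the Ulk1OV libraries, and 5xFAD and WT had a wide spread. The change of -0.34 ± 0.21 (log2) against Ulk1OV did not pass the test (edgeR adjusted p = 0.343).

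Ptk2b (chromosome 14, 66153257 to 66281052, minus strand) encodes PYK2, a calcium-activated tyrosine kinase of synapses. It stood at 715.1, 798.6 and 604.4 CPM in 5xFAD;Ulk1OV, 908.9, 594.5 and 741.9 CPM in 5xFAD, 789.2, 666.7 and 626.7 CPM in Ulk1OV, and 686.0, 653.7 and 681.1 CPM in WT. The groups overlapped, with the widest spread in 5xFAD (748.5 ± 157 CPM, SD, n = 3) and the narrowest in WT (673.6 ± 17.4 CPM, SD, n = 3). Inpp5d (chromosome 1, 87620312 to 87720507, plus strand) encodes SHIP1, a lipid phosphatase that dampens immune receptor signals in microglia. It was at 14.0, 17.9 and 15.4 CPM in 5xFAD;Ulk1OV, 23.3, 19.8 and 13.1 CPM in 5xFAD, 18.8, 18.8 and 16.7 CPM in Ulk1OV, and 18.2, 14.2 and 17.1 CPM in WT. The groups overlapped here too, and neither gene passed any test. Their interactions were -0.13 ± 0.21 for Ptk2b (edgeR adjusted p = 0.727) and -0.38 ± 0.26 for Inpp5d (edgeR adjusted p = 0.350).

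Mapt (chromosome 11, 104231390 to 104332090, plus strand) encodes tau, which binds neuronal microtubules. It stood at 426.8, 405.4 and 495.8 CPM in 5xFAD;Ulk1OV, 462.7, 416.4 and 439.9 CPM in 5xFAD, 425.0, 448.6 and 438.3 CPM in Ulk1OV, and 433.1, 434.4 and 447.5 CPM in WT. The groups overlapped, and the highest library was the one labelled 5xFAD;Ulk1OV replicate 3. Its 4 changes between pairs of groups were at most 0.02 in size on the log2 scale, each with an SE of 0.09. The interaction was 0.01 ± 0.12 (edgeR adjusted p = 0.960).

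The interaction moved with the GC content of transcripts across all genes. In 5 equal groups of 3422 genes ordered by the GC content of the longest transcript, its median was -0.35, -0.19, -0.03, 0.15 and 0.39 (log2) from the lowest to the highest. Picalm and Cd2ap were in the lowest group, Sorl1 in the third, Bin1, Ptk2b, Inpp5d and Mapt in the fourth, and Apoe, Clu and Abca7 in the highest. Among genes within 1 percentage point of its own GC content the median was 0.43 for Apoe, 0.23 for Bin1 and -0.31 for Picalm, each of the sign of that gene's own value and smaller. The median around Clu was 0.28, where Clu itself had -0.34. Median shifts of the same kind stood in each pair of groups: the highest GC group was at 0.24 and the lowest at -0.20 for 5xFAD;Ulk1OV against Ulk1OV, and the highest was at -0.22 and the lowest at 0.16 for Ulk1OV against WT.

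**Figure D3:**
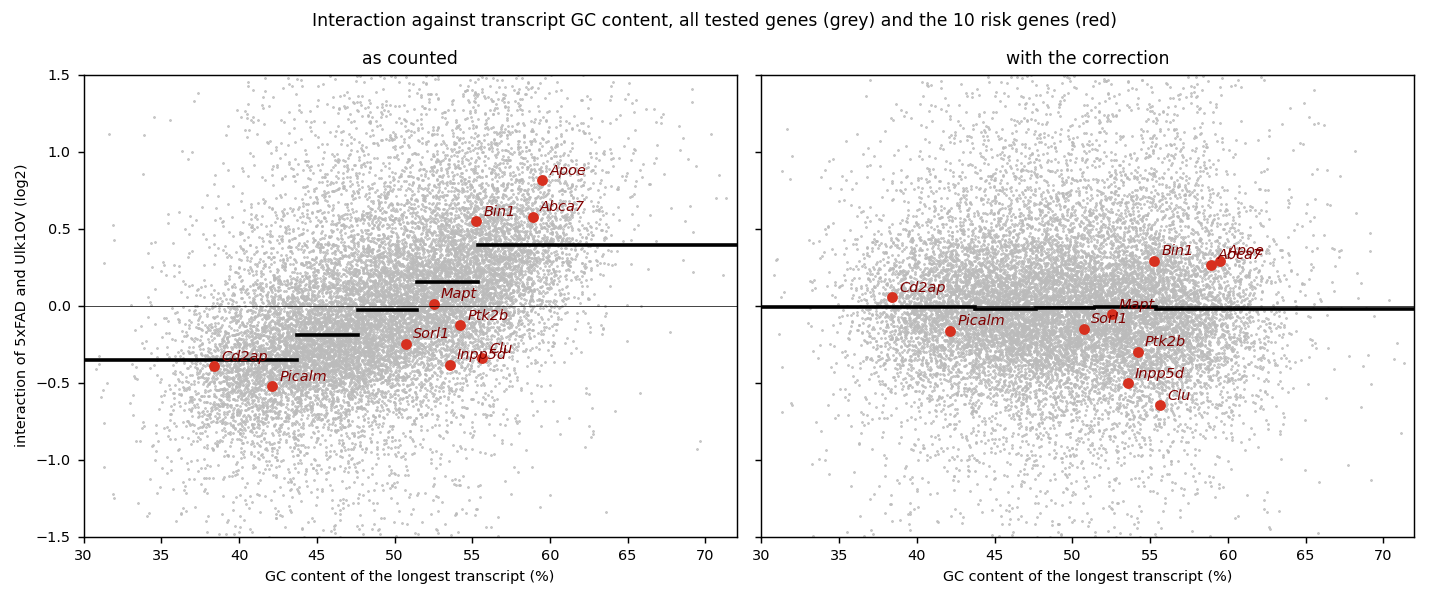
Interaction of 5xFAD and Ulk1OV (y axis, log2) against the GC content of the longest transcript (x axis, %), for all tested genes with an annotated transcript (grey) and the 10 genes (red), as counted and with the correction; genes beyond the axes are not drawn. Black lines are medians of 5 equal groups of genes, which climb as counted (-0.35 to 0.39) and lie between -0.02 and -0.01 with the correction.

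After every library's dependence on GC content and length was corrected, the interaction was 0.29 ± 0.16 for Apoe (edgeR adjusted p = 0.324), 0.29 ± 0.12 for Bin1 (adjusted p = 0.177) and -0.16 ± 0.12 for Picalm (adjusted p = 0.485), none past the threshold. The correction removes any change that follows GC content, whatever its source, so the trend and the genotype cannot be told apart. The corrected Apoe level was 2491, 2779.9 and 2542 CPM in 5xFAD;Ulk1OV, against 2137, 2141 and 1937 CPM in 5xFAD. It was 2001, 2419 and 2755 CPM in Ulk1OV, against 2567, 2196 and 2219 CPM in WT. Of the pairs of groups that did not overlap as counted, 5xFAD;Ulk1OV and 5xFAD still did not, and neither did 5xFAD and WT, while 5xFAD;Ulk1OV now overlapped Ulk1OV. The corrected fold change against 5xFAD was 0.33 ± 0.11 in 5xFAD;Ulk1OV (edgeR adjusted p = 0.307). With each library left out in turn as well, the corrected interactions of Apoe, Bin1 and Picalm passed the test in 0 of 12 fits.

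Clu was the gene called with the correction. Its corrected level was 1240.2, 1397 and 1609.9 CPM in 5xFAD;Ulk1OV, against 1809.9, 1878 and 1877 CPM in Ulk1OV. It was 1704, 1716 and 1499 CPM in 5xFAD, against 1307, 1382 and 1421 CPM in WT. Every Ulk1OV library was above every library of the other 3 groups, and every 5xFAD library was above every WT library. The interaction was -0.65 ± 0.14 (edgeR adjusted p = 0.0190), the only one of the 10 genes past the threshold, against 5.46% of all genes.

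Clu was 0.44 ± 0.10 higher (log2) in Ulk1OV than in WT with the correction (edgeR adjusted p = 0.0330), 1 of 10 genes against 3.53% of all. It was -0.39 ± 0.10 in 5xFAD;Ulk1OV against Ulk1OV, just under the threshold (edgeR adjusted p = 0.04997), 1 of 10 genes against 2.73% of all. No gene of the 10 was called with the correction for 5xFAD against WT (1609 genes at an unadjusted p under 0.05) or for 5xFAD;Ulk1OV against 5xFAD (1898 genes), where 0.0% of all genes were. The corrected interaction of Clu was -0.56 to -0.76 with each library left out and did not pass the test without 5xFAD;Ulk1OV replicate 2 (adjusted p = 0.0556), Ulk1OV replicate 3 (adjusted p = 0.0549) or WT replicate 1 (adjusted p = 0.0577). The corrected change against WT passed in 6 of 12 such fits, between 0.41 and 0.47, and lost its call without any 1 of the Ulk1OV (adjusted p = 0.0529, 0.0666 and 0.145 for replicates 1, 2 and 3) or WT libraries (adjusted p = 0.127, 0.0937 and 0.0574). The corrected change against Ulk1OV passed in 2 of 12, without 5xFAD replicate 1 (-0.39, adjusted p = 0.0466) or the library labelled 5xFAD;Ulk1OV replicate 3 (-0.50, adjusted p = 0.0164).

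**Figure D4:**
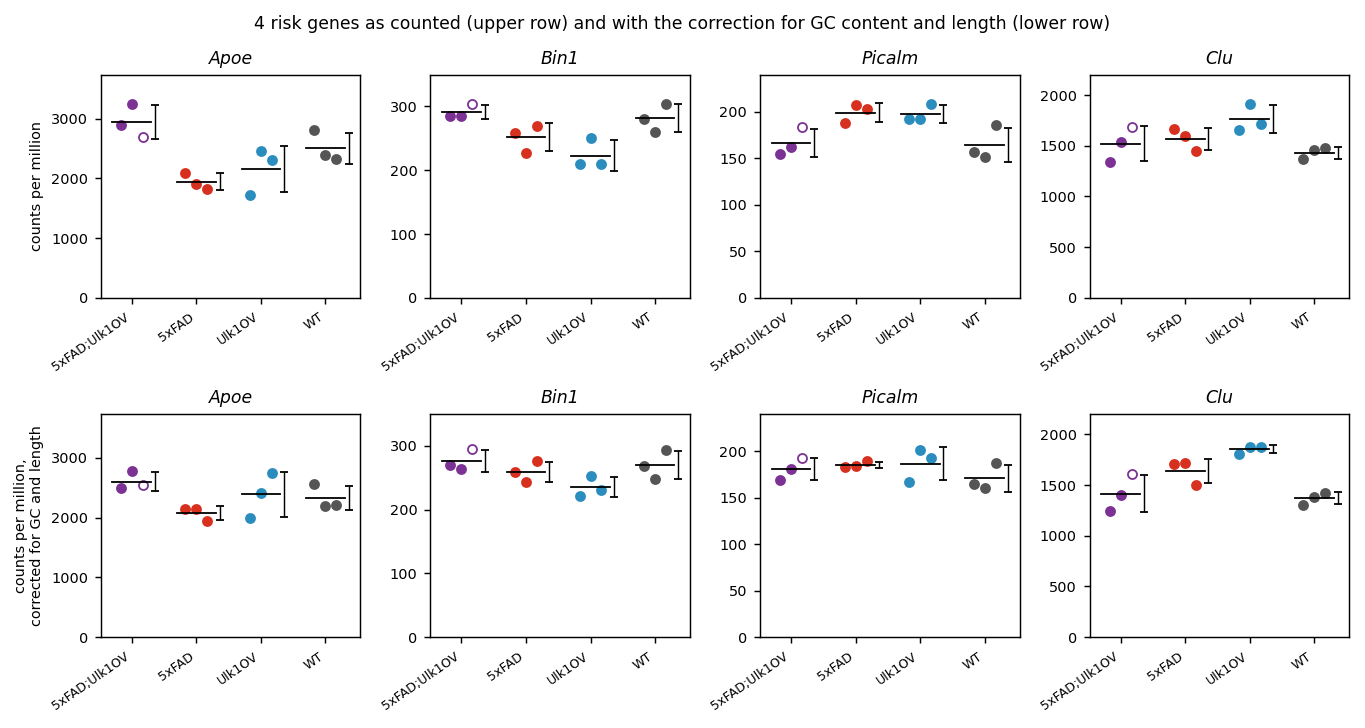
Level in CPM (y axes, from 0) of Apoe, Bin1, Picalm and Clu in each library by group (x axis), as counted above and corrected for GC content and length below; lines are means, bars SD over 3 libraries, and the open circle is the library labelled 5xFAD;Ulk1OV replicate 3. The corrected means of Picalm lay between 170.6 and 186.5 CPM, against 164.3 to 199.0 as counted, while the mean of Clu in Ulk1OV stood at 1855 CPM corrected and 1759 CPM as counted, with WT at 1370.1 and 1431.5 CPM.

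Markers of meninges, vessels and border macrophages were measured in the same groups. The 10 markers of meningeal fibroblasts summed to 217.6 to 399.5 CPM of the library total in 5xFAD;Ulk1OV, 172.6 to 300.2 in 5xFAD, 193.4 to 228.8 in Ulk1OV and 311.7 to 391.5 in WT. In the interaction 7 of these 10 were called with a positive value and 0 with a negative value. The median was 2.51 (log2), and 5 were called positive with the correction. In that comparison 12.8% of all tested genes were called in either direction, and 5.46% with the correction. The lowest sum among the 5xFAD;Ulk1OV libraries was in the one labelled replicate 3, and without it 7 were again called positive. The 10 endothelial markers summed to 103.5 to 153.7 CPM in 5xFAD;Ulk1OV, 72.6 to 108.8 in 5xFAD, 79.5 to 100.7 in Ulk1OV and 109.9 to 165.2 in WT, and 5 rose in the interaction, 2 with the correction and 3 to 6 with a library left out. Of 9 border macrophage markers 2 rose, 0 with the correction and 0 to 4 with a library left out (4 if it was the one labelled 5xFAD;Ulk1OV replicate 3), and they summed to 19.2 to 58.6 CPM in 5xFAD;Ulk1OV, 17.9 to 34.4 in 5xFAD, 15.5 to 27.4 in Ulk1OV and 35.2 to 73.4 in WT. The 8 mural cell markers summed to 79.1 to 91.8 CPM in 5xFAD;Ulk1OV, 59.7 to 103.8 in 5xFAD, 75.3 to 79.4 in Ulk1OV and 86.6 to 100.3 in WT. Of the 7 tested 2 rose in the interaction, 0 with the correction and 0 to 2 with a library left out. Border macrophages and vascular cells are known to express Apoe, and the part of these cells in the Apoe and Bin1 results was not tested.

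Astrocyte markers, which mark the main source of Apoe and Clu in the brain, summed to 6899 to 8453 CPM in 5xFAD;Ulk1OV, 6483 to 8242 in 5xFAD, 7661 to 8061 in Ulk1OV and 6886 to 7637 in WT. The lowest Ulk1OV sum (7661 CPM) was just above the highest WT sum (7637 CPM), and 1 of the 12 markers rose in Ulk1OV against WT. In that comparison 5.17% of all tested genes were called, and the libraries did not overlap for 29.5%. In the interaction 0 of the 12 astrocyte markers were called, with a median of -0.19 as counted and -0.07 with the correction. Microglial markers summed to 655.1 to 728.4 CPM in 5xFAD;Ulk1OV, 625.2 to 766.9 in 5xFAD, 596.3 to 698.4 in Ulk1OV and 633.8 to 727.6 in WT, so the groups overlapped as they did for Inpp5d. The 12 markers of plaque-associated microglia, a list that does not hold Apoe, summed to 468.8 to 622.1 CPM in 5xFAD;Ulk1OV, against 371.1 to 405.8 in Ulk1OV. Of these markers 5 rose, 2 with the correction and 0 to 5 with a library left out. The lowest 5xFAD;Ulk1OV sum (468.8 CPM) was in the library labelled replicate 3, and 5 rose without it. In that comparison 6.1% of all tested genes were called, and 2.73% with the correction. The same markers summed to 484.7 to 555.7 CPM in 5xFAD, against 464.7 to 514.4 in WT. Between those groups 0 of the 12 were called (5 of 12 at an unadjusted p under 0.05), where 0.0% of all tested genes were (2139 of 17227 at that p). Their median log2 fold change there was 0.42 (0.50 with the correction), against 0.003 over all tested genes. For 5xFAD averaged over both backgrounds 0 of the 12 were called. Without the library labelled 5xFAD;Ulk1OV replicate 3, 4 rose, where 0 to 9 of all tested genes were called with a library left out. Oligodendrocyte markers, of the cells in which Bin1 is abundant, summed to 9539 to 14742 CPM in 5xFAD;Ulk1OV, 7548 to 14933 in 5xFAD, 11116 to 12198 in Ulk1OV and 8422 to 14101 in WT, and the groups overlapped. The choroid plexus list holds Ttr, so its sum was bound to be high in the same libraries as Ttr, and no sum without Ttr was made. In these libraries Clu was the lowest of its group in Ulk1OV replicate 1 and the highest of its group in WT replicate 3.

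**Figure D5:**
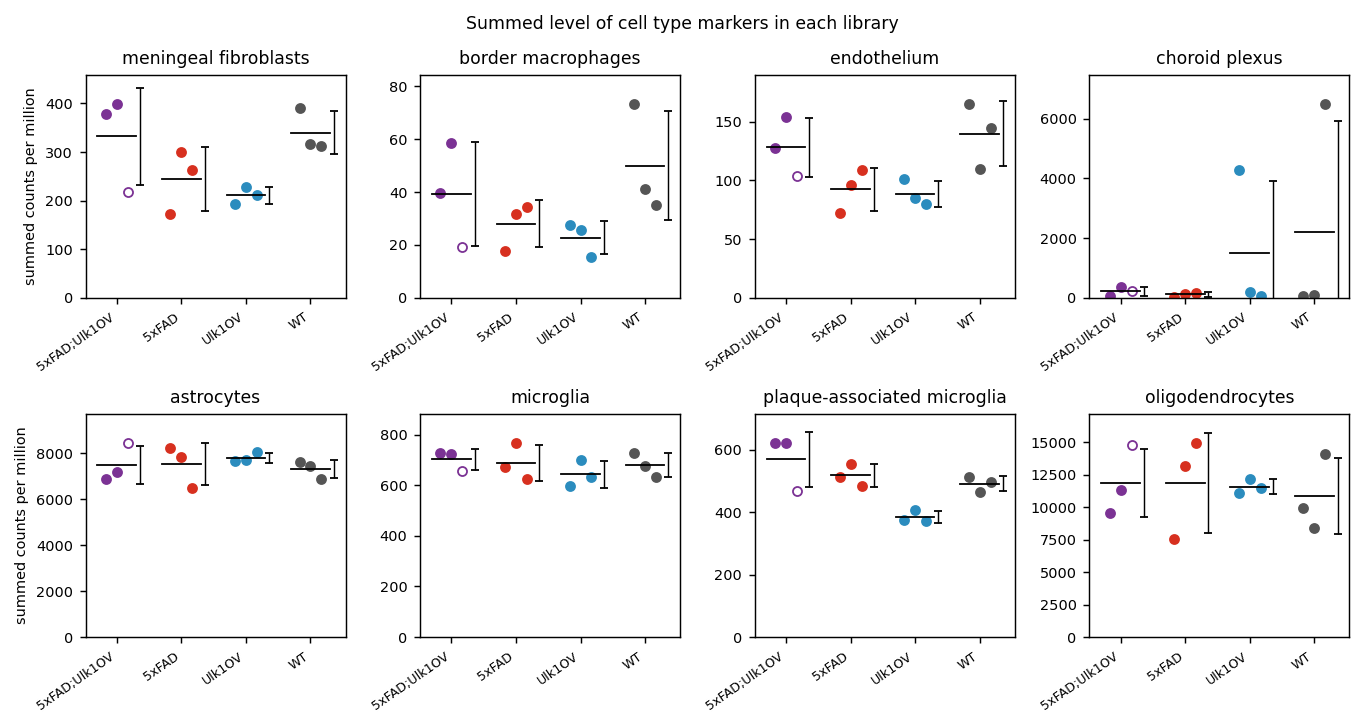
Summed CPM of the library total (y axes, from 0) for markers of 8 cell types in each library, by group (x axis); lines are means, bars SD over 3 libraries, and the open circle is the library labelled 5xFAD;Ulk1OV replicate 3. Meningeal fibroblast and endothelial sums were lowest on average in the groups with 1 label, choroid plexus sums were highest in Ulk1OV replicate 1 and WT replicate 3, and the oligodendrocyte sums of all 4 groups overlapped.

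The paralogs closest to these genes were measured alongside. Per kilobase of exon, Abca2 was 12.97 times as abundant as Abca7, and Sort1 (sortilin) 3.02 times as abundant as Sorl1. Snap91 (the neuronal adaptor AP180) was 3.15 times as abundant as Picalm, and Sh3kbp1 2.68 times as abundant as Cd2ap. The ratios to Picalm and Cd2ap depend on the exon lengths given above. Of 18 paralogs tested, the interaction was called for 1 in each direction, where 12.8% of all tested genes were called. Inppl1, which encodes the phosphatase SHIP2, had 0.57 ± 0.16 (edgeR adjusted p = 0.0360), and Map2, which binds microtubules in dendrites, had -0.65 ± 0.20 (adjusted p = 0.0442). Neither was called with the correction (adjusted p = 0.293 and 0.155). Inppl1 passed in 5 of 12 fits with a library left out and Map2 in 2 of 12. Snap91 had 0.13 ± 0.19 (edgeR adjusted p = 0.714), where Picalm had -0.52.

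Genes at other Alzheimer risk loci were tested from a list of 62, of which 55 had enough counts. In the interaction 3 rose and 3 fell, against 12.8% of all tested genes called, and with the correction 2 rose and 1 fell, against 5.46%, so both shares were near those of all genes. Tmem106b, which encodes a lysosomal membrane protein, averaged 204.1 ± 9.49 CPM in 5xFAD;Ulk1OV, 248.6 ± 18.9 in 5xFAD, 255.2 ± 29.3 in Ulk1OV and 199.3 ± 5.01 in WT (SD, n = 3 each), with an interaction of -0.64 ± 0.13 (edgeR adjusted p = 0.0104, and 0.243 with the correction). Tspan14, a tetraspanin that escorts the protease ADAM10, averaged 39.7 ± 2.36 CPM in 5xFAD;Ulk1OV, 35.6 ± 4.63 in 5xFAD, 29.7 ± 2.12 in Ulk1OV and 41.3 ± 0.646 in WT, with an interaction of 0.63 ± 0.15 (edgeR adjusted p = 0.0162, and 0.0397 with the correction). Cnn2, a calponin, had 1.65 ± 0.34 (adjusted p = 0.0110, and 0.0297 with the correction) and Tspoap1 had 0.73 ± 0.17 (adjusted p = 0.0165, and 0.119 with the correction). In 5xFAD;Ulk1OV against Ulk1OV 4 of the 55 rose and 0 fell (0 and 1 with the correction), against 6.1% of all genes, among them Trem2, the microglial lipid receptor. Trem2 averaged 27.9 ± 7.62 CPM in 5xFAD;Ulk1OV and 16.2 ± 3.01 CPM in Ulk1OV, a rise of 0.78 ± 0.19 (edgeR adjusted p = 0.0330, and 0.0543 with the correction, and a rise of 1.01 if the library labelled 5xFAD;Ulk1OV replicate 3 was left out). In Ulk1OV against WT 2 rose and 2 fell, against 5.17% of all genes. The risers were Cox7c (0.46 ± 0.11, edgeR adjusted p = 0.0389, and 0.0774 with the correction) and Tmem106b (0.36 ± 0.09, adjusted p = 0.0450, and 0.146 with the correction), each called in 4 of 12 fits with a library left out. The fallers were Tspan14 (-0.47 ± 0.10, edgeR adjusted p = 0.0296, and 0.0331 with the correction), called in 8 of 12 such fits, and Tspoap1 (-0.50 ± 0.12, adjusted p = 0.0362, and 0.154 with the correction), called in 5 of 12. In 5xFAD against WT 0 of 55 were called (7 at an unadjusted p under 0.05).

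Of 13 genes of familial Alzheimer disease and APP processing, 1 rose and 1 fell in the interaction, against 12.8% of all tested genes called. With the correction 1 rose and 2 fell, against 5.46%, and 1 of these fallers was not called as counted. Aph1a, a subunit of gamma-secretase, averaged 36.1 ± 0.725 CPM in 5xFAD;Ulk1OV, 31.3 ± 1.64 in 5xFAD, 25.3 ± 1.37 in Ulk1OV and 37.4 ± 3.84 in WT (SD, n = 3 each). Its interaction was 0.77 ± 0.13 (edgeR adjusted p = 0.00662) and 0.59 ± 0.13 with the correction (adjusted p = 0.0236). Ide, the insulin-degrading enzyme, which also cleaves amyloid-beta, averaged 47.9 ± 3.94 CPM in 5xFAD;Ulk1OV, 61.2 ± 2.92 in 5xFAD, 65.7 ± 4.26 in Ulk1OV and 52.1 ± 1.34 in WT. Its interaction was -0.69 ± 0.12 (edgeR adjusted p = 0.00639) and -0.42 ± 0.10 with the correction (adjusted p = 0.0260). Both kept their calls with each of the 12 libraries left out.

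Partners of the endocytic genes, 32 genes of clathrin endocytosis and retromer, had 1 riser and 4 fallers in the interaction, against 12.8% of all tested genes called, and 1 faller with the correction, against 5.46%. Cltc, the clathrin heavy chain, had -0.53 ± 0.11 (edgeR adjusted p = 0.0125, and 0.196 with the correction) and Rab5a, the GTPase of early endosomes, had -0.54 ± 0.12 (adjusted p = 0.0158, and 0.0370 with the correction). Vps26a and Vps29, subunits of retromer, had -0.49 ± 0.11 (adjusted p = 0.0132) and -0.51 ± 0.13 (adjusted p = 0.0276), and neither passed with the correction. Vps29 also did not pass without the library labelled 5xFAD;Ulk1OV replicate 3 (-0.44, adjusted p = 0.0581). In Ulk1OV against WT 3 of the 32 rose and 0 fell, against 5.17% of all tested genes called. Rab5a rose by 0.36 ± 0.09, Vps26a by 0.30 ± 0.08 and the scaffold gene Itsn1 by 0.40 ± 0.11. In 5xFAD;Ulk1OV against Ulk1OV 1 rose and 2 fell, against 6.1% of all tested genes called. The clathrin adaptor gene Epn1 rose by 0.70 ± 0.18, while Rab5a fell by 0.37 ± 0.09 and Vps26a by 0.32 ± 0.08. With the correction 0 of the 32 were called in either comparison. These 6 calls between pairs of groups passed in 3 to 8 of 12 fits with a library left out.

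Around Apoe, 0 of 20 lipoprotein receptor and lipid efflux genes were called in the interaction (5 at an unadjusted p under 0.05), with 1 faller under the correction. Of all tested genes 12.8% were called there, and 5.46% with the correction. Around Mapt, 26 tau kinases, phosphatases and microtubule proteins had 3 risers and 5 fallers in the interaction, against 12.8% of all tested genes called, and 0 with the correction. With a library left out there were 0 to 5 risers and 1 to 4 fallers. The risers included Tubb3, a neuronal tubulin (0.62 ± 0.15), and Cdk5r2, an activator of CDK5 (0.95 ± 0.23), and the fallers Map1b (-0.58 ± 0.13) and Ppp2ca, the catalytic subunit of a tau phosphatase (-0.42 ± 0.11). Ppp2ca was called in 4 of 12 such fits and not without the library labelled 5xFAD;Ulk1OV replicate 3 (-0.37, edgeR adjusted p = 0.0610), Cdk5r2 was called in 8 and Tubb3 in 11. In Ulk1OV against WT 3 of the 26 fell, against 5.17% of all tested genes called. Tubb3 fell by 0.45 ± 0.10, Cdk5r2 by 0.61 ± 0.16 and the tau kinase gene Mark4 by 0.53 ± 0.13. In 5xFAD;Ulk1OV against Ulk1OV Cdk5r2 rose by 0.63 ± 0.16 and Map1b fell by 0.33 ± 0.09, against 6.1% of all tested genes called. With the correction 0 of the 26 were called in either comparison. With a library left out, the calls against WT passed in 8 of 12 fits for Tubb3, 4 for Cdk5r2 and 5 for Mark4, and those against Ulk1OV in 6 for Cdk5r2 and 2 for Map1b, whose fall did not pass without the library labelled 5xFAD;Ulk1OV replicate 3 (edgeR adjusted p = 0.0842). Around Inpp5d and Ptk2b, 1 of 22 immune receptor and integrin signalling genes fell in the interaction, against 12.8% of all tested genes called. It was Sos1, a Ras activator (-0.50 ± 0.15, edgeR adjusted p = 0.0391, and 0.649 with the correction), called in 4 of 12 fits with a library left out. With the correction 1 of the 22 fell, a gene other than Sos1, against 5.46% of all tested genes called. In 5xFAD against WT 0 genes of any of these lists were called, as were 0 of all tested genes.

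The genes whose level across the 12 libraries was most like each member's were named by Pearson's r of log2 CPM over 15213 genes, as a description that shares libraries, groups and GC trend. Apoe was nearest to Rpl11 (r = 0.954), Apex1 and Rpl36, Clu to Thrsp (0.924), Timp4 and Fam107a, and Abca7 to Vamp1 (0.927), Slc6a8 and Rgl2. Sorl1 was nearest to Atrn (0.951), Mycbp2 and Cacna1e, Bin1 to Pop7 (0.947), Rbm8a and Smim4, Picalm to Pik3r1 (0.946), 2610021A01Rik and Mtmr2, and Cd2ap to Nfe2l3 (0.922), Ppfibp2 and Pus10. Ptk2b was nearest to Map3k4 (0.937), Nptx1 and Dclk2, Inpp5d to Arrdc4 (0.856), Inip and Gfm2, and Mapt to Rrnad1 (0.895), Cdc7 and Tmem177. No member was among the 3 nearest genes of another.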

How the data were processed

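Total RNA of mouse hippocampus went into NEBNext Ultra libraries, per the labels' protocols, and the sources used here do not give how RNA was selected. The authors deposited raw counts per gene, not normalized. The submitters' processing notes name HISAT2, featureCounts, DESeq2, FastQC, Trim Galore, SAMtools and mm10. For the annotation and the strand setting nothing is stated in the sources used here, and reads of paralogs and of overlapping genes are uncertain. Opposite-strand genes overlap Sorl1 (Gm16214, up to 5 counts a library) and Bin1 (A830052D11Rik, up to 20). Intervals and tests cover these libraries only, and molecular identifiers were not used.

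Groups were taken from the labels. edgeR 4.0.16 (R 4.3.3) kept 17227 genes by its filter (minimum count 10), scaled by TMM and fitted all 12 libraries with 1 mean per group by the quasi-likelihood test. A gene was called at a Benjamini-Hochberg adjusted p under 0.05 over all tested genes, and SE is the log2 fold change over the square root of F. CPM are TMM-scaled, except marker sums, which are CPM of the library total. Positions, exon lengths and GC content come from GENCODE M21 on GRCm38, with values for 99.3% of tested genes. The correction for GC content and length takes a loess trend (span 0.4) per library as an offset. Scripts were tested on simulated counts. Alternatives were DESeq2 1.42.0, its size factors, no filter, a replicate block, only the 6 libraries compared, the correction, and each library left out; the correction with each library left out was added after seeing the data.

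The members and gene lists were chosen with earlier results of these data known, and the correction was planned knowing that the calls moved with GC content. Named were all 10 genes, up to 4 called genes per list and comparison by smallest p, paralogs reaching 0.1 of the member's level per length, the 3 genes most like each member, and App, Prnp, Ulk1 and Ttr as checks. Thy1 was added as a check of the promoter after its values were seen. Replicates 1 to 3 were not paired across groups: same-numbered libraries correlated at -0.18 to 0.22 in their deviations from group means. Some genes that the rule for named genes covers are not reported here.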

Additional observations from a re-analysis of the deposited data

Results flagged for a closer look

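The effect of 5xFAD differed with Ulk1OV, by the test of the interaction over all genes (edgeR adjusted p under 0.05), for 20 of the genes named here. Of all tested genes 12.8% were called in that test. Apart from the risk genes and the paralogs, the genes were named because a test called them, so their number measures nothing about the lists. Not all of these calls held with a library left out, as given above. Among the risk genes these were Apoe (0.81 on the log2 scale), Bin1 (0.55) and Picalm (-0.52). At other risk loci they were Tmem106b (-0.64), Cnn2 (1.65), Tspan14 (0.63) and Tspoap1 (0.73), and in APP processing Ide (-0.69) and Aph1a (0.77). Of the paralogs they were Inppl1 (0.57) and Map2 (-0.65), and in endocytosis and retromer Cltc (-0.53), Vps26a (-0.49), Rab5a (-0.54) and Vps29 (-0.51). Around tau they were Map1b (-0.58), Tubb3 (0.62), Cdk5r2 (0.95) and Ppp2ca (-0.42), and in immune receptor signalling Sos1 (-0.50). Corrected for GC content and length, 5 of the 20 were called (Cnn2, Tspan14, Ide, Aph1a and Rab5a). The GC trend and the genotype cannot be told apart, and the part of meningeal and vascular cells in these results was not tested.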

How the results depend on the processing

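The log2 fold changes of the 10 genes kept their direction wherever they had been called: of 1300 values under the alternatives, 1255 kept their side of the threshold, 18 passed it anew, 27 no longer passed it and 0 reversed. Most of the 1300 were of genes and comparisons not called to begin with, so 1255 does not measure how firm the calls were. All 27 losses were on the calls of Bin1 for 5xFAD;Ulk1OV against Ulk1OV and of Apoe, Bin1 and Picalm in the interaction. With the correction and a library left out, set against the correction with all libraries, 821 of 840 kept their side and 19 no longer passed. All 19 were of Clu, the only gene of the 10 called with the correction. The number of the 10 genes called for 5xFAD;Ulk1OV against Ulk1OV was 2 with DESeq2 and with no filter, and 0 with only the 6 libraries compared and with the correction in a replicate block. For Ulk1OV against WT it was 2 with DESeq2 and 1 with no filter, with the correction and with the correction in a replicate block, and for 5xFAD;Ulk1OV against 5xFAD 1 with DESeq2 and no filter. For the interaction it was 1 with the correction, with and without a replicate block. With 1 library left out, the count ran from 0 to 2 for 5xFAD;Ulk1OV against Ulk1OV (0 to 1 with the correction as well), 0 to 1 for Ulk1OV against WT (0 to 1), 0 to 1 for 5xFAD;Ulk1OV against 5xFAD (0 to 0) and 1 to 3 for the interaction (0 to 1).

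Over all tested genes the calls moved with the tool. For 5xFAD against WT they were 150 with DESeq2, 551 with no filter, 2 with only the 6 libraries compared, 1 with the correction in a replicate block and 0 to 39 with a library left out (0 to 35 with the correction). For 5xFAD;Ulk1OV against Ulk1OV they were 2027, 2097 and 430 in the first 3 settings, 471 with the correction, 420 with it in a replicate block and 0 to 1629 with a library left out (2 to 836). For Ulk1OV against WT they were 1883 with DESeq2, 2079 with no filter, 587 with the correction in a replicate block and 0 to 1294 with a library left out (0 to 878). For 5xFAD;Ulk1OV against 5xFAD they were 734 with DESeq2, 901 with no filter, 18 with DESeq2's size factors, 0 in the other 4 settings and 0 to 260 with a library left out (0 to 72). For the interaction they were 941 with the correction, 839 with it in a replicate block and 974 to 2596 with a library left out (329 to 1228). For 5xFAD and Ulk1OV averaged they were 16 and 42 with DESeq2, 202 and 437 with no filter, 0 to 9 and 0 to 4 with a library left out (0 to 8 and 0 to 2). The cause was not tested.

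The labels number replicates alike in each group, but the numbers do not pair the libraries. In a replicate block the interaction was 0.81 for Apoe, 0.54 for Bin1 and -0.53 for Picalm (edgeR adjusted p = 0.0199, 0.0289 and 0.0128), and the same genes of the 10 were called as without it. With the correction in a replicate block, Clu was not called for 5xFAD;Ulk1OV against Ulk1OV (-0.39, edgeR adjusted p = 0.0563), and its other 2 corrected calls remained. Counts of 145 to 511 per library for Abca7, Cd2ap and Inpp5d limit what could be seen for these genes, and their SE for a pair of groups was 0.18 to 0.26.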
